A study of Mus musculus with 9 samples.

Results

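Liver X receptors (LXRs) and the genes of cholesterol efflux were followed through 9 libraries of mouse BMMs, macrophages derived in culture from precursors of the bone marrow. The set held 8 genes of the 51826 rows of the deposited count table, and every row carrying the symbol Abcg1, Abca1, Nr1h3, Nr1h2, Mylip, Srebf1, Apoe or Lpcat3 was taken. The series held 3 groups of 3 libraries. Control was BMMs with no treatment named, CM was BMMs exposed for 48 h to medium conditioned by K7M2 cells, a mouse osteosarcoma line, and CM plus DTM was BMMs exposed for 48 h to that medium together with DTM. DTM is not spelled out in the labels, which also leave out the mouse strain and the culture time and medium of control, so effects of time or medium cannot be told apart from those of CM in any comparison with control. Whether libraries of 1 group stem from different cultures or mice is not labelled, so the p-values rest on the variation among the libraries at hand, which may be only technical.

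LXRs are nuclear receptors that sense oxysterols, the oxidised derivatives of cholesterol, and act on DNA as partners of retinoid X receptors. When ligand is bound, they turn on genes that move cholesterol out of the cell and limit its uptake, and they also turn on genes of fatty acid and phospholipid synthesis. Macrophages are known for this pathway because they take up lipoproteins and cell debris and must dispose of the cholesterol. Nr1h3 encodes LXR alpha and Nr1h2 encodes LXR beta. Abca1 and Abcg1 export cholesterol to poor and to mature lipoprotein particles respectively, and Apoe is a secreted acceptor of that cholesterol. Mylip, also called IDOL, is a ubiquitin ligase that limits lipoprotein uptake, Srebf1 is a master regulator of fatty acid synthesis, and Lpcat3 puts polyunsaturated fatty acids into phospholipids.

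The promoters of Abca1 and Srebf1 are shown because they were the members in which a stretch spelled GGTTACT, then any 2 bases, then CGG, was found. The sequences are the 250 bases before a gene start in RefSeq on build GRCm38.p6, written 5′ to 3′ on the strand of the gene, with matches in capitals; as the matches lie on the opposite strand, the capitals read as the reverse complement of that spelling. For Abca1 the bases are chr4:53159896-53160145 on the minus strand, and for Srebf1 they belong to promoter 3 of its 3 listed starts, chr11:60210472-60210721 on the minus strand.
Abca1: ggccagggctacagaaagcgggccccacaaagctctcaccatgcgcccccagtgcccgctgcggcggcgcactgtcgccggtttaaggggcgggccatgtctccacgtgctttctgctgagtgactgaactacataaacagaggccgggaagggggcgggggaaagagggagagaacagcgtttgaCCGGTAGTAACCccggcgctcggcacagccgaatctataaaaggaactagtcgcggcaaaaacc
Srebf1: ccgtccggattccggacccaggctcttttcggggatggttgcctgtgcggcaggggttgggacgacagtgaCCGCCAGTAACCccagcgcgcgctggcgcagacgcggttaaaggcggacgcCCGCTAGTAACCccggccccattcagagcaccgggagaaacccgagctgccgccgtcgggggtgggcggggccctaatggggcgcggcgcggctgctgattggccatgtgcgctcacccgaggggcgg
Abca1 held 1 match, GGTTACTACCGG, from position -64 to -53 relative to the start. Srebf1 held 2 matches in that promoter, GGTTACTGGCGG from -179 to -168 and GGTTACTAGCGG from -128 to -117. Of the 8 members, 7 had an entry in the promoter table, and Abcg1 is named only. On either strand of all 32851 promoters, in windows of 300 bases that ended 50 bases after the start, the spelling was found in 9 (0.0274%), those of Abca1, Srebf1, Fasn, Icosl, Cnot4, Golm1, Wdfy2, Hpx and Gm20636. The spelling was chosen with these promoters in view. The textbook LXR element in its full form, AGGTCA repeated after any 4 bases, was found on either strand in 5 promoters (0.0152%), and 0 of them belonged to a member. Only exact copies were counted, so this does not show that the members lack an LXR element with other letters in its repeats.

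Depth ran from 43084296 to 50407973 counts per library, and all 8 members passed the filter on low counts, as did 15429 genes in all. The label BMM was checked against 12 macrophage markers on 13 rows (Itgam has 2 rows), of which 0 were at 0 in any library and whose summed level was 27130 to 47720 CPM (counts scaled to library size). Libraries CM 1 and CM plus DTM 1 stood apart from the other libraries of their groups. The correlation of log2 CPM across genes was 0.940 and 0.939 between CM 1 and the other CM libraries, against 0.985 between those, and 0.919 and 0.936 for CM plus DTM 1, against 0.979. The 11 neutrophil markers summed to 23.5 CPM in CM 1, with 6 of them at 0, to 270 and 298 CPM in CM 2 and CM 3, to 223 to 753 CPM in control and to 361 to 1148 CPM in CM plus DTM. The 12 mesenchymal and osteoblast markers summed to 135 CPM in CM 1 and to 524 to 838 CPM in the other libraries. In edgeR 0 of 11 neutrophil and 0 of 9 tested mesenchymal markers were called in any comparison. For CM over control, CM plus DTM over CM and CM plus DTM over control, the neutrophil counts were 1, 2 and 1 at an unadjusted p under 0.05, 0, 0 and 0 in DESeq2 and 2, 1 and 1 in limma-voom with sample weights. The mesenchymal counts were 2, 0 and 0, 1, 0 and 0, and 3, 2 and 0 in the same order. These compare with 21.4%, 28.3% and 24.4% of all genes at an unadjusted p under 0.05. The neutrophil median log2 fold change was nonetheless -1.24, 1.74 and 0.47 in that order, with 0, 10 and 9 of 11 positive. In CM plus DTM over CM 7 of 11 lay higher without overlap, against 16.7% of all genes. The mesenchymal median was -0.11, 0.53 and -0.01. The lack of calls therefore does not show these markers unchanged. Of the macrophage rows 2 were called, Fcgr1 (log2 fold change 1.84, adjusted p = 0.0485) and Mertk in CM over control, and Fcgr1 was lost in all fits that left out 1 library but those without CM 1 or CM plus DTM 1 (adjusted p 0.0614 to 0.184). Of 2 tested dendritic cell markers Itgax was called there (1.59, adjusted p = 0.0121), and it was lost without control 2 (0.0776) or control 3 (0.0617). The 1 tested lymphoid marker was not called. The part of these markers in the results was not tested, and in bulk RNA fewer cells of a type and less RNA per cell cannot be told apart. Fold changes are therefore given for all 9 libraries and, where it matters, without CM 1 and CM plus DTM 1. Both were left out because they stood apart in these same data, which narrows the spread within their groups by choice. The adjusted p-values of that fit can therefore be too small and its calls too many, so they serve as description.

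Abcg1 rose in CM and was the only member called there. Abca1 and Apoe also lay apart from control in CM, Abca1 above it and Apoe below it, but were not called, and both receptors and the other 3 members overlapped with control. A call means an adjusted p under 0.05 in the quasi-likelihood test of edgeR, with adjustment by Benjamini and Hochberg's method over all 15429 genes. In CM over control 1 of 8 members was called, where the share over all genes was 5.61%. The groups did not overlap for 3 of 8 members, where the share was 36.7%, and 2 of these lay higher (18.3%) and 1 lower (18.4%). The median log2 fold change was 0.25 over the members and -0.01 over all genes. Between CM plus DTM and CM, 0 of 8 members and 0 of all genes (0%) were called by edgeR. At an unadjusted p under 0.05 the test gave 3 of 8 members and 28.3% of all genes, DESeq2 called 2 members (16.1% of all genes) and limma-voom with sample weights called 6 (40.4%). The groups did not overlap for 2 of 8 members, both lower, against 34.4% of all genes in either direction and 17.8% lower. The log2 fold change was negative for 7 of 8 members, and the median was -0.56 over the members and -0.03 over all genes. Between CM plus DTM and control 1 of 8 members was called, Abcg1, against 2.45% of all genes (1.5% higher, 0.946% lower). At an unadjusted p under 0.05 the count was 2 members, against 24.4%, and 3 of 8 did not overlap, against 34.5%. The median was -0.28 over the members and 0.01 over all genes. The comparisons share libraries, so their values are set side by side and are not separate evidence.

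Other fits gave these shares of all genes called, against which their calls of members are read. For CM over control they were 10.4% in DESeq2, 30.1% in limma-voom with sample weights, 5.7% with total-count scaling, 2.66% with no filter on low counts, 9.05% with only the compared groups and 4.37% with the library number as a block. For CM plus DTM over control the same fits gave 11.4%, 37.9%, 2.91%, 1.01%, 0.791% and 0.966%, and for CM plus DTM over CM total-count scaling gave 0.00648% and the compared groups alone 0.00673%. Fits that each lacked a library called 1.62% to 11.9% of genes for CM over control, 0% to 11.8% for CM plus DTM over CM and 0.0947% to 11.1% for CM plus DTM over control. In the order CM over control, CM plus DTM over CM and CM plus DTM over control, the shares were 5.26%, 0% and 4.69% without CM 1, 11.9%, 0.0444% and 2.1% without CM plus DTM 1, and 4.77%, 11.8% and 11.1% without CM plus DTM 2. Without control 3 they were 2%, 0.00629% and 0.34%.

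**Figure D1:**
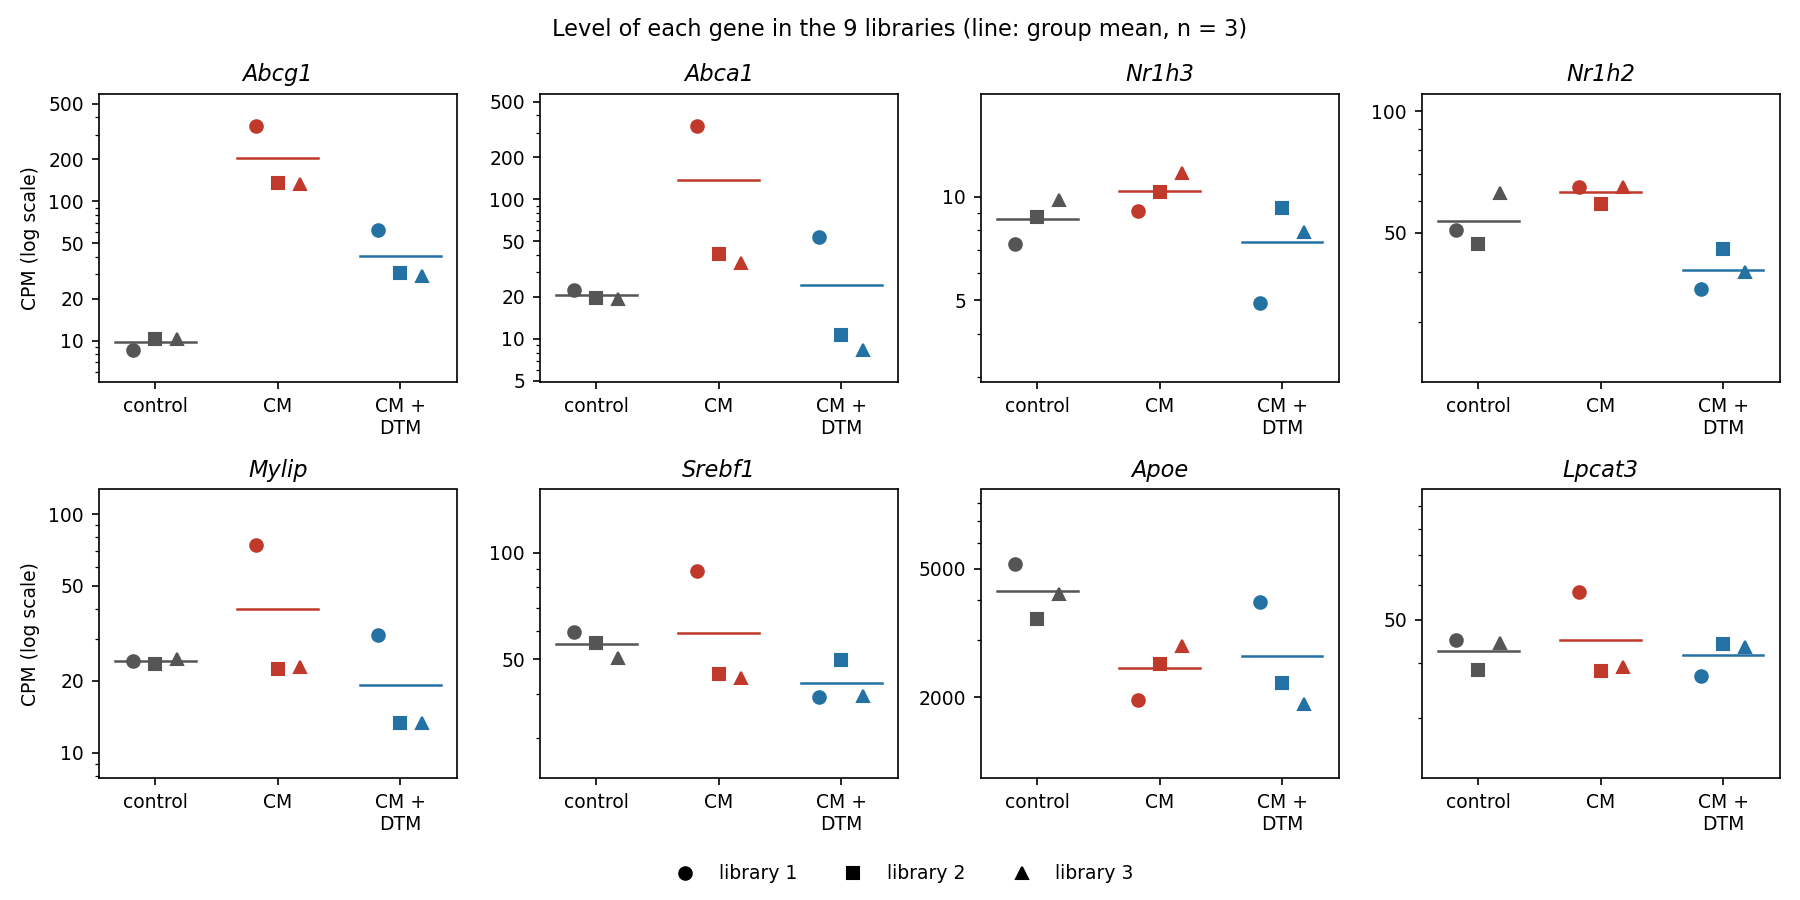
CPM on a log axis for each of the 8 genes (panels) in control, CM and CM plus DTM, with 1 point per library (shape gives the library number) and a line at the mean of 3. All CM libraries lie above all control libraries for Abcg1 (134 to 348 against 8.59 to 10.3 CPM), and CM 1 is the highest CM library for Abcg1, Abca1, Mylip, Srebf1 and Lpcat3.

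Per kilobase of the longest annotated transcript, the only scale on which levels of different genes are compared here, Apoe led in control at 3038 ± 596 CPM per kb (SD, n = 3). Nr1h2 followed at 26.7 ± 4.11 CPM per kb, Lpcat3 at 17.9 ± 1.47, Srebf1 at 12.8 ± 1.09 and Mylip at 7.89 ± 0.187. Nr1h3 stood at 4.34 ± 0.624 CPM per kb, and the transporters were lowest, Abca1 at 2.0 ± 0.174 and Abcg1 at 1.67 ± 0.169. In CM, Abcg1 stood at 35.2 ± 21.2 CPM per kb, beside 31.5 ± 1.77 for Nr1h2, a difference smaller than the spread of Abcg1. With DTM it stood at 7.0 ± 3.24 CPM per kb, next to Mylip at 6.29 ± 3.36.

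Neither receptor gene was called in any comparison with all 9 libraries. Nr1h2, the more abundant receptor, was measured at 50.7, 46.9 and 62.7 CPM in control 1, 2 and 3, at 64.9, 58.8 and 65.0 CPM in CM and at 36.2, 45.4 and 39.8 CPM in CM plus DTM. Every CM plus DTM library thus lay below every control and every CM library, while control and CM overlapped. The log2 fold change was 0.24 (SE 0.17, adjusted p = 0.458) for CM over control, -0.64 (SE 0.17, adjusted p = 0.065) for CM plus DTM over CM and -0.40 (SE 0.17, adjusted p = 0.185) for CM plus DTM over control. The difference between CM plus DTM and CM passed the threshold without CM plus DTM 2 (-0.72, adjusted p = 0.047) and in DESeq2 (adjusted p = 0.0166). Nr1h3, the gene of LXR alpha, was measured at 7.31, 8.75 and 9.77 CPM in control, at 9.07, 10.3 and 11.7 CPM in CM and at 4.92, 9.28 and 7.91 CPM in CM plus DTM. Its groups overlapped in CM over control and in CM plus DTM against both others, with CM plus DTM 1 the lowest of all 9 libraries. Fitted log2 fold changes were 0.27 (SE 0.27, adjusted p = 0.622), -0.49 (SE 0.27, adjusted p = 0.261) and -0.22 (SE 0.27, adjusted p = 0.642) for the comparisons in the same order.

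The log2 ratio of Nr1h3 to Nr1h2 reads within a library does not depend on scaling and was nearly flat. It was -2.79, -2.42 and -2.68 in control, -2.84, -2.51 and -2.47 in CM, and -2.88, -2.29 and -2.33 in CM plus DTM. The groups overlapped, and the mean differed by 0.02 between CM and control (exact permutation test, 2-sided, p = 1), by 0.11 between CM plus DTM and CM (exact p = 0.6) and by 0.13 between CM plus DTM and control (exact p = 0.6). Library 1 had the lowest ratio in each group.

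Abcg1, the transporter that loads cholesterol onto mature lipoprotein particles, rose 21.1-fold in CM. It was measured at 8.59, 10.3 and 10.3 CPM in control, at 348, 135 and 134 CPM in CM and at 62.6, 30.8 and 29.0 CPM in CM plus DTM. The 3 groups did not overlap, with control lowest, CM plus DTM between and CM highest, and library 1 was the highest of both treated groups. The log2 fold change was 4.40 (SE 0.48, adjusted p = 0.00199) for CM over control and the call was kept whichever of the 9 libraries was left out (3.79 to 4.64, adjusted p up to 0.0175). For CM plus DTM over control it was 2.07 (SE 0.44, adjusted p = 0.0456), a 4.19-fold rise. That call held without CM 1 (adjusted p = 0.018) or CM plus DTM 2 (0.0297) and was lost without any other single library (0.0662 to 0.169). For CM plus DTM over CM the log2 fold change was -2.33 (SE 0.44, adjusted p = 0.0611), not a call, and it became one without CM plus DTM 2 (-2.15, adjusted p = 0.0374) and in DESeq2 (adjusted p = 5.19e-05).

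Without CM 1 and CM plus DTM 1, Abcg1 was called in every comparison, with adjusted p-values that this choice of libraries can make too small. Its log2 fold change was then 3.82 (SE 0.14, adjusted p = 6.46e-06) for CM over control, -2.22 (SE 0.15, adjusted p = 0.00427) for CM plus DTM over CM and 1.60 (SE 0.13, adjusted p = 0.000618) for CM plus DTM over control. In CM 2 and CM 3 the mean level was 13.8 times that of control, and in CM plus DTM 2 and 3 it was 0.223 of the mean of CM 2 and 3. In these 7 libraries 16.0%, 4.97% and 8.40% of genes were called in the 3 comparisons.

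Abca1, the transporter that starts a lipoprotein particle by loading its bare protein, was uneven within both treated groups. It was measured at 22.6, 19.6 and 19.3 CPM in control, at 338, 40.4 and 35.1 CPM in CM and at 54.0, 10.7 and 8.34 CPM in CM plus DTM. All CM libraries lay above all control libraries, whereas CM plus DTM straddled control, with CM plus DTM 1 above it and the other 2 below it. CM 1 held 8.97 times the mean of CM 2 and 3, and CM plus DTM 1 held 5.69 times the mean of CM plus DTM 2 and 3, the widest such gaps of the 8 members. CM 1 was also the library with 6 of 11 neutrophil markers at 0 and CM plus DTM 1 the one with their highest summed level, 1148 CPM; the part of these markers in the Abca1 levels was not tested.

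With all libraries Abca1 was not called by edgeR. For CM over control limma-voom with sample weights did call it, at a smaller log2 fold change of 1.03 (SE 0.32, adjusted p = 0.0362). The log2 fold changes fitted by edgeR were 2.75 (SE 0.99, adjusted p = 0.147) for CM over control, -2.50 (SE 0.98, adjusted p = 0.135) for CM plus DTM over CM and 0.24 (SE 0.93, adjusted p = 0.894) for CM plus DTM over control. Leaving out CM 1 alone gave 0.88 for the first and -0.64 for the second, and leaving out CM plus DTM 1 alone gave -3.90 for the second and -1.13 for the third, with no call. Without both libraries all 3 comparisons were called, with 0.91 (SE 0.16, adjusted p = 0.0076), -2.04 (SE 0.19, adjusted p = 0.00714) and -1.13 (SE 0.17, adjusted p = 0.00975). The difference between CM plus DTM and control thus changed its sign, as it also did under total-count scaling (-0.09), with the library number as a block (-0.51) and in limma-voom with sample weights (-1.13, adjusted p = 0.0432).

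**Figure D2:**
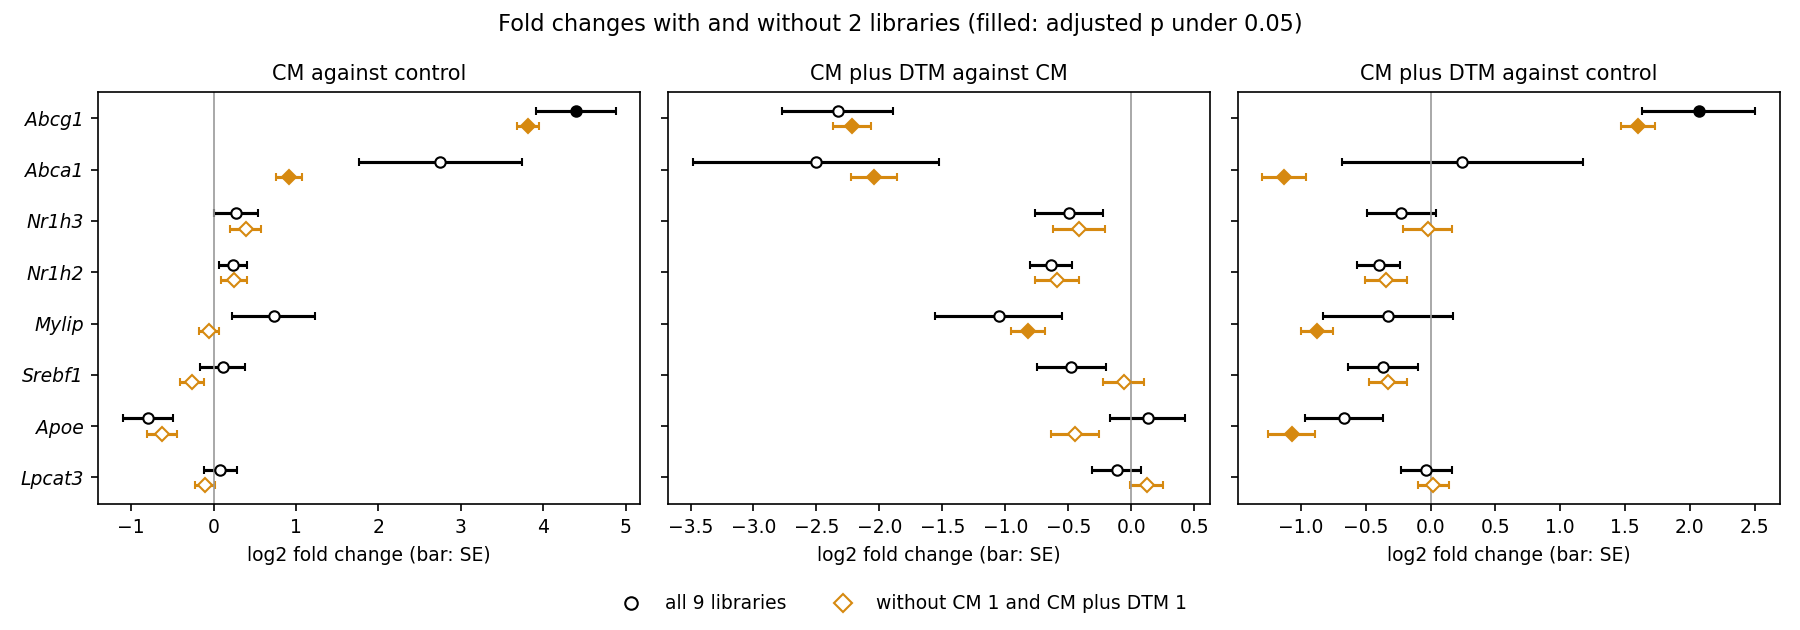
Log2 fold changes of the 8 genes with bars of 1 SE, in 3 panels by comparison, for all 9 libraries (circles) and without CM 1 and CM plus DTM 1 (diamonds); filled symbols have an adjusted p under 0.05. Abcg1 stays between 3.82 and 4.40 in CM over control, while Abca1 moves from 2.75 to 0.91 there and from 0.24 to -1.13 in CM plus DTM over control.

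Relative to Abca1, every treated library held more Abcg1 than any control library. The log2 ratio of Abcg1 to Abca1 reads was -1.39, -0.93 and -0.91 in control, 0.04, 1.74 and 1.93 in CM and 0.21, 1.53 and 1.80 in CM plus DTM. Both treated groups lay above control without overlap and overlapped each other almost fully. The mean difference was 2.31 for CM over control, 2.26 for CM plus DTM over control (exact permutation test, 2-sided, p = 0.1 each, adjusted p = 0.3 over the 6 ratio tests) and -0.05 for CM plus DTM over CM (exact p = 0.9, adjusted p = 1). With 3 libraries against 3 the smallest p this test can give is 0.1, so neither shift could pass the threshold. With each library left out in turn, the difference between CM plus DTM and CM ran from -0.65 to 0.43. The ratio in CM 1 and CM plus DTM 1 was lower than in the other libraries of their groups, so the shift from control was larger without them, at 2.91 and 2.74.

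**Figure D3:**
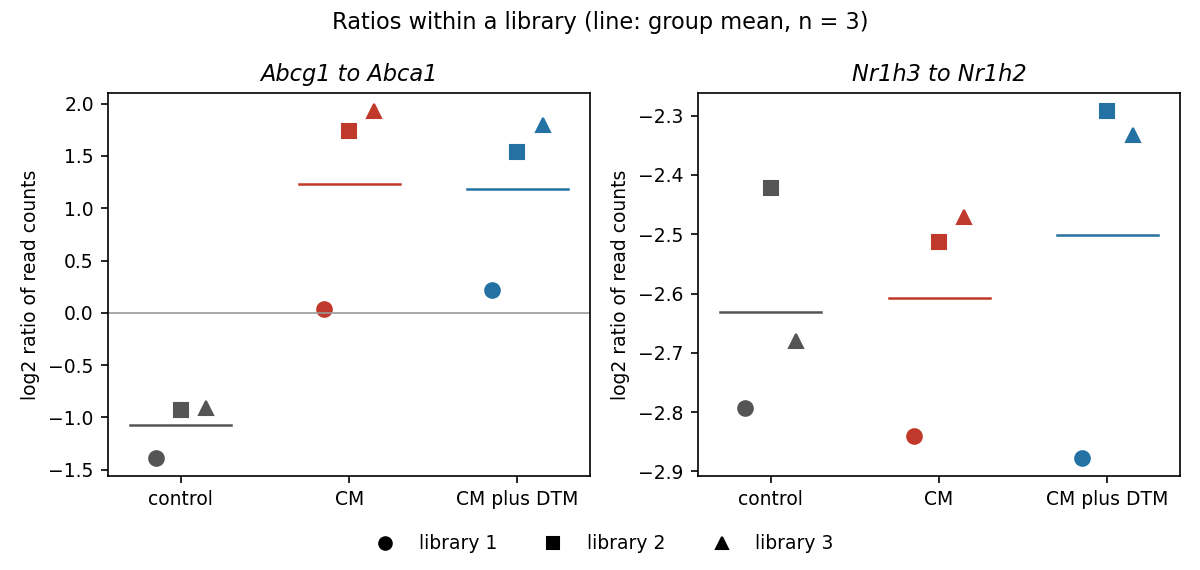
Log2 ratio of read counts within each library for Abcg1 to Abca1 and for Nr1h3 to Nr1h2, by group, with 1 point per library and a line at the mean of 3. The Abcg1 to Abca1 ratio is below 0 in all control libraries and above 0 in all treated ones, and the groups overlap in the receptor ratio, which stays between -2.88 and -2.29.

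Apoe, the lipoprotein component that macrophages secrete and that takes up effluxed cholesterol, was lower in CM than in control in every library. It was measured at 5167, 3499 and 4165 CPM in control, at 1955, 2532 and 2880 CPM in CM and at 3941, 2214 and 1911 CPM in CM plus DTM. CM lay below control without overlap, and CM plus DTM 1 reached the control range while the other 2 libraries of its group did not. The log2 fold change was -0.80 (SE 0.30, adjusted p = 0.165) for CM over control, 0.13 (SE 0.30, adjusted p = 0.81) for CM plus DTM over CM and -0.67 (SE 0.30, adjusted p = 0.21) for CM plus DTM over control, none of them a call. The first passed the threshold without CM plus DTM 1 (-0.77, adjusted p = 0.0465) and under total-count scaling (-0.99, adjusted p = 0.0451). Without CM 1 and CM plus DTM 1 the values were -0.63 (adjusted p = 0.0515), -0.44 (adjusted p = 0.173) and -1.07 (adjusted p = 0.015), so the sign of the second turned.

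Mylip, the ligase that limits lipoprotein uptake, was nearly constant in control and split by library in the treated groups. It was measured at 24.3, 23.6 and 24.7 CPM in control, at 74.5, 22.4 and 22.9 CPM in CM and at 31.2, 13.3 and 13.4 CPM in CM plus DTM. CM 1 and CM plus DTM 1 were above every control library and the other 4 treated libraries below every control library, so both treated groups overlapped with control. Fitted log2 fold changes were 0.73 (SE 0.50, adjusted p = 0.449), -1.05 (SE 0.50, adjusted p = 0.204) and -0.33 (SE 0.50, adjusted p = 0.721) in the order of the comparisons. Without CM 1 and CM plus DTM 1 it was -0.06 (adjusted p = 0.792), -0.82 (SE 0.13, adjusted p = 0.0256) and -0.88 (SE 0.13, adjusted p = 0.00799). CM over control turned its sign by leaving out CM 1 alone (-0.09).

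Srebf1, the regulator of fatty acid synthesis, was measured at 59.6, 55.4 and 50.3 CPM in control, at 88.8, 45.4 and 44.1 CPM in CM and at 39.2, 49.8 and 39.3 CPM in CM plus DTM. CM 1 was the highest of all libraries, CM 2 and CM 3 lay below control, and CM plus DTM lay below control without overlap. The log2 fold change was 0.11 (SE 0.27, adjusted p = 0.863), -0.48 (SE 0.27, adjusted p = 0.282) and -0.37 (SE 0.27, adjusted p = 0.441) in the order of the comparisons. The first had the other sign without CM 1 (-0.30) and under total-count scaling (-0.07), and the second was -0.06 without both libraries that stood apart. Gene-level counts do not tell the transcripts from its 3 listed starts apart.

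Lpcat3, the phospholipid remodelling enzyme, was the steadiest member over the 3 groups. It was measured at 44.9, 38.6 and 44.3 CPM in control, at 57.8, 38.3 and 39.2 CPM in CM and at 37.4, 44.2 and 43.4 CPM in CM plus DTM. The groups overlapped in every comparison, with CM 1 the highest library. Fitted log2 fold changes were 0.08 (SE 0.19, adjusted p = 0.854), -0.11 (SE 0.20, adjusted p = 0.738) and -0.03 (SE 0.20, adjusted p = 0.938). Its sign turned without both libraries that stood apart, to -0.10, 0.12 and 0.02, and under total-count scaling in CM over control (-0.10).

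Within the treated groups the members did not share 1 ranking of libraries. CM 1 held the highest level of all 9 libraries for 5 of 8 members, where 22.9% of all genes had their highest level in it, and CM plus DTM 1 held the lowest for 4 members, where the share was 27.0%. With 0.5 CPM added to both sides, CM 1 differed by more than 2-fold from the mean of CM 2 and 3 for 3 members and 13.0% of genes. CM plus DTM 1 differed so from the mean of CM plus DTM 2 and 3 for 3 members and 18.7% of genes. As a description over 9 libraries, which share their groups and scaling, Pearson's r of log2 CPM was 0.96 between Abca1 and Mylip and 0.86 without CM 1. It was 0.79 between Nr1h3 and Nr1h2 and 0.83 without CM 1. Between Abcg1 and Abca1 it was 0.72, and 0.50 without CM 1. Between Abcg1 and Apoe it was -0.62, and -0.49 without CM 1.

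The genes whose log2 CPM followed Abcg1 most closely over the 9 libraries, among 9329 genes of at least 5 CPM, were Tiparp (r = 0.989), Spp1 (0.987), Klf4 (0.985), Dynlt3 (0.985) and Stx3 (0.984). Spp1 encodes osteopontin and was measured at 5469 ± 658 CPM in control, 26110 ± 10160 in CM and 10740 ± 2564 in CM plus DTM (SD, n = 3). Those closest to Abca1 were Thbs1 (r = 0.980), Pigh (0.980), Gpr35 (0.974), Apba1 (0.966) and Mgea5 (0.964). Thbs1, thrombospondin 1, stood at 879 ± 130, 1521 ± 938 and 848 ± 308 CPM in the 3 groups. Rbms2, Scaf4, Dnm2, Exo5 and Mtf1 were closest to Nr1h3 (r = 0.980 to 0.960) and Tram2, Spata13, Kctd3, Smad3 and Tcf3 to Apoe (0.927 to 0.917). These genes were ranked by that r and nothing else.

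Of 20 other LXR target genes 17 were tested, and edgeR called 3 higher in CM. These were Lpl, the lipoprotein lipase that frees fatty acids from lipoproteins (log2 fold change 1.61, SE 0.23, adjusted p = 0.00542), Arg2, a mitochondrial arginase (3.20, SE 0.76, adjusted p = 0.0429), and Mertk, a receptor for engulfing dead cells (0.78, SE 0.19, adjusted p = 0.0485). EdgeR called 0 of the list lower, against 1.57% of all genes called lower and 4.04% called higher. The log2 fold change was positive for 11 of 17 genes. Without overlap 6 lay higher and 1 lower, where 18.3% and 18.4% of all genes did. At an unadjusted p under 0.05 the list gave 6 of 17 genes, where 21.4% of all genes passed. DESeq2 called 5 genes of the list higher and 0 lower (10.4% of all genes in either direction), and limma-voom with sample weights called 7 higher and 3 lower (30.1%). The median log2 fold change was 0.28 over the list, against -0.01 over all genes. Lpl was measured at 371, 322 and 247 CPM in control, at 832, 1082 and 949 CPM in CM and at 619, 981 and 792 CPM in CM plus DTM. Both treated groups lay above control, and Lpl was also called in CM plus DTM over control (1.35, SE 0.23, adjusted p = 0.0229), the only gene of the list to be called there. Mertk was measured at 45.6, 49.3 and 55.7 CPM in control, 106, 79.4 and 74.0 CPM in CM and 34.3, 43.2 and 32.7 CPM in CM plus DTM, so that CM plus DTM lay below control without overlap. Arg2 was scarce, at 0.321 ± 0.0380 CPM in control, 2.97 ± 0.990 in CM and 1.95 ± 2.18 in CM plus DTM.

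Lpl kept its call in CM over control whichever of the 9 libraries was left out. That of Arg2 was lost without any control or CM library (adjusted p 0.0872 to 0.166), and that of Mertk without any library but CM plus DTM 1 (0.0511 to 0.195). The later call of Lpl, in CM plus DTM over control, was lost without any control library or CM plus DTM 3 (0.0588 to 0.108). Over CM, the median of the list in CM plus DTM was -0.39 and 6 of 17 genes lay lower without overlap, where 17.8% of all genes did. No gene of it was called by edgeR there, against 5 of 17 at an unadjusted p under 0.05 (28.3% of all genes), 3 lower in DESeq2 and 7 lower in limma-voom. Scd2 and Scd1, desaturases that make monounsaturated fatty acids and chosen for mention after their values were seen, were highest in CM 1. Scd2 stood at 378 CPM there and at 61.5 and 61.2 CPM in CM 2 and 3, and Scd1 at 51.2, 16.9 and 17.6 CPM.

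**Figure D4:**
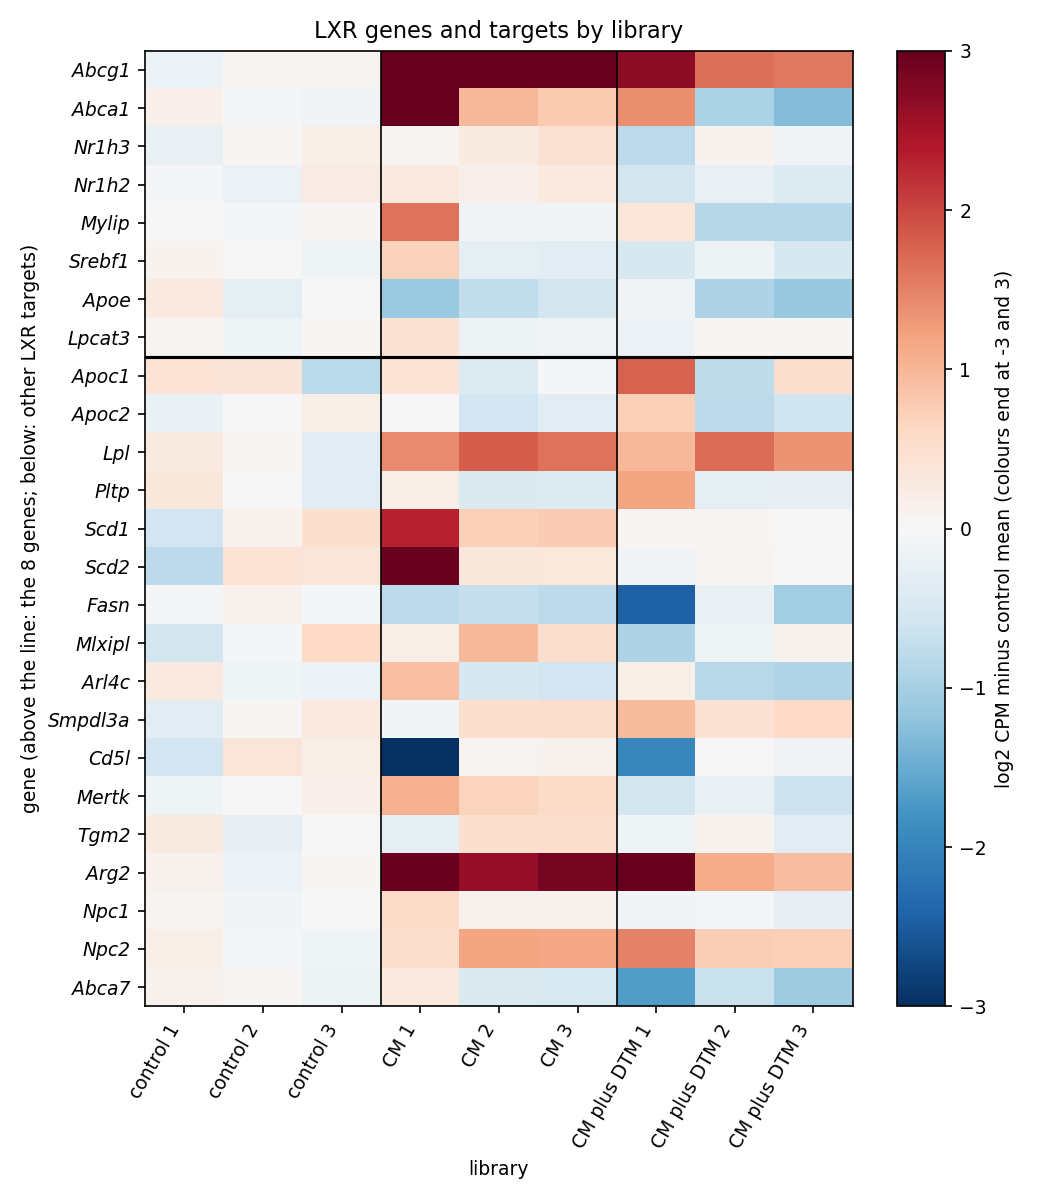
Log2 CPM minus the control mean (colour scale, ends at -3 and 3) for the 8 genes above the line and 17 other LXR target genes below it, in the 9 libraries. Abcg1, Lpl and Arg2 are above the control mean in all treated libraries, and Scd1, Scd2, Mylip and Abca1 are highest in CM 1.

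Of the other genes that carry the promoter spelling, Fasn, Icosl, Cnot4, Golm1 and Wdfy2 were tested, and Icosl, a costimulatory ligand, was the only one called in CM over control (-1.21, SE 0.16, adjusted p = 0.00456). It fell there, whereas Abca1 and Srebf1 were not called. In CM plus DTM over CM and over control edgeR called none of these genes. Wdfy2 stood at -1.68 (SE 0.40, adjusted p = 0.0611) and -1.77 (SE 0.40, adjusted p = 0.055) in these comparisons. Icosl stood at 0.72 (SE 0.16, adjusted p = 0.0611) and -0.48 (SE 0.16, adjusted p = 0.123). Fasn, the fatty acid synthase, stood at 135 ± 10.8 CPM in control, 79.7 ± 3.24 in CM and 68.2 ± 45.6 in CM plus DTM.

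For 17 tested partners and coregulators of LXR the median log2 fold change was 0.04, -0.56 and -0.42 in the order of the comparisons. Rxra, the main partner of LXR, stood at 148 ± 8.91, 148 ± 26.8 and 111 ± 28.0 CPM and was not called.

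Of 9 tested genes of other nuclear receptors and their coactivators, not all of them lipid sensors, edgeR called Nr4a1 alone. It was called lower in CM over control, where 1.57% of all genes were. The list as a whole lay the other way in CM over control, with a median log2 fold change of 0.54, 7 of 9 genes positive and 3 apart from control on the higher side, where 18.3% of all genes were. DESeq2 called 2 of its genes higher and 1 lower, limma-voom with sample weights 3 and 1, and edgeR without CM 1 and CM plus DTM 1 also 3 and 1. The median was -0.54 in CM plus DTM over CM and -0.02 in CM plus DTM over control. Nr4a1 fell in CM by 1.35 on the log2 scale (SE 0.33, adjusted p = 0.0498), from 13.1, 5.97 and 6.76 CPM to 3.79, 2.90 and 3.43 CPM, a call that only the fit without CM plus DTM 1 kept among the 9 that each lacked a library. Pparg, a fatty acid sensor known to act upstream of Nr1h3 in macrophages, stood at 18.9 ± 2.33, 20.6 ± 1.66 and 16.6 ± 6.71 CPM and was not called. Of 9 tested enzymes that make or break down oxysterols and sterol ligands, edgeR called 0 in each comparison, with 1, 2 and 1 of 9 at an unadjusted p under 0.05, beside 21.4%, 28.3% and 24.4% of all genes. Across the comparisons DESeq2 called 1, 0 and 0 of them and limma-voom with sample weights 2, 3 and 3. Ch25h, which makes an oxysterol ligand from cholesterol, reached 834 CPM in CM plus DTM 1, beside 35.5 and 38.7 CPM in CM plus DTM 2 and 3, 43.1 to 53.9 CPM in CM and 27.2 to 114 CPM in control. Ebp, a sterol isomerase, had an adjusted p of 0.453, 0.1 and 0.38 in the order of the comparisons.

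Of 9 other tested A and G family ABC transporters, edgeR called Abca2 lower and none higher in CM and in CM plus DTM over control. The shares of all genes called lower were 1.57% and 0.946%. In CM over control limma-voom with sample weights called 1 of the list higher and 2 lower. For CM plus DTM over CM the list's median log2 fold change was -0.76, against -0.03 over all genes, with 1 of 9 positive. Without overlap 5 of 9 lay lower (17.8% of all genes) and 0 higher (16.7%). EdgeR called 0 of them there, with 6 of 9 at an unadjusted p under 0.05 (28.3%). DESeq2 called 4 lower and limma-voom with sample weights 5 (16.1% and 40.4% of all genes in either direction). Abca2, a lysosomal lipid transporter, was measured at 60.5, 55.1 and 52.0 CPM in control, at 40.4, 33.2 and 30.6 CPM in CM and at 22.2, 27.2 and 23.7 CPM in CM plus DTM. The 3 groups did not overlap, and the log2 fold change was -0.69 (SE 0.17, adjusted p = 0.0497) in CM and -1.20 (SE 0.17, adjusted p = 0.0147) in CM plus DTM over control. The first call held only without CM 1 or CM plus DTM 1 among the fits that each lacked a library (adjusted p up to 0.169), and the second was lost without any control library or CM plus DTM 3 (0.0527 to 0.0802). Abcg2, an exporter of drugs and porphyrins, stood at 14.0 ± 0.594, 14.0 ± 2.72 and 15.5 ± 1.32 CPM. Abca7 stood at 56.3 ± 5.25, 50.4 ± 15.9 and 26.6 ± 9.01 CPM.

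On the uptake side, 12 receptors were tested, of which edgeR called 1 higher and 1 lower in CM, against 4.04% and 1.57% of all genes. Without overlap 2 lay higher and 6 lower, against 18.3% and 18.4%. DESeq2 called 1 higher and 3 lower, limma-voom with sample weights 4 and 4. Without CM 1 and CM plus DTM 1, edgeR called 2 and 4. Msr1, a scavenger receptor for modified lipoproteins, rose by 1.73 on the log2 scale (SE 0.42, adjusted p = 0.0456), from 203, 169 and 157 CPM to 242, 764 and 743 CPM. Within CM it was lowest in CM 1, the library in which Abca1 was highest. Stab1, a scavenger receptor for modified lipoproteins and matrix fragments, fell by 1.67 on the log2 scale (SE 0.32, adjusted p = 0.0194), from 2487, 1676 and 1641 CPM to 433, 715 and 680 CPM. As for CM plus DTM over control, Lrp1, a large receptor that takes up Apoe-bearing particles, fell by 1.47 on the log2 scale (SE 0.28, adjusted p = 0.0324), from 2984, 2491 and 2386 CPM to 724, 1240 and 880 CPM. Among the fits that each lacked a library, Msr1 held only without CM 1 or CM plus DTM 1 (adjusted p up to 0.167), Stab1 was lost without any control library, CM 2 or CM 3 (0.0529 to 0.0855), and Lrp1 held only without CM 1 or CM plus DTM 2 (up to 0.118).

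Of 21 genes of cholesterol storage and intracellular traffic, edgeR called 3 higher and 0 lower in CM, against 4.04% and 1.57% of all genes. DESeq2 called 4 higher and 0 lower, and limma-voom with sample weights 7 and 3 (10.4% and 30.1% of all genes in either direction). Without CM 1 and CM plus DTM 1, edgeR called 5 higher and 2 lower. Soat1, which esterifies cholesterol for storage, went from 214, 237 and 232 CPM to 364, 377 and 349 CPM (log2 fold change 0.68, SE 0.13, adjusted p = 0.0185). Nceh1, which hydrolyses cholesteryl esters, went from 192 ± 25.7 to 332 ± 50.9 CPM (0.79, SE 0.18, adjusted p = 0.0334), and Stard3, a carrier of late endosomal cholesterol, from 61.4 ± 6.57 to 94.4 ± 4.51 CPM (0.62, SE 0.15, adjusted p = 0.0412). Soat1 was lost without any control library, CM 2 or CM 3 (0.058 to 0.0949), Nceh1 held only without CM plus DTM 1 or 2, and Stard3 only without CM plus DTM 1. The list's median log2 fold change was 0.17 in CM over control, -0.30 in CM plus DTM over CM and -0.07 in CM plus DTM over control.

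Of 23 genes of SREBP2 and cholesterol synthesis, edgeR called 0 in each comparison. At an unadjusted p under 0.05 the counts were 7, 5 and 3 of 23, beside 21.4%, 28.3% and 24.4% of all genes, while DESeq2 called 1, 0 and 1 and limma-voom with sample weights 11, 11 and 5. The median log2 fold change was -0.40 in CM over control and 10 of 23 genes lay lower without overlap, where 18.4% of all genes did. Without CM 1 and CM plus DTM 1, 6 genes were called lower in CM over control, 5 higher in CM plus DTM over CM and 1 lower in CM plus DTM over control. Srebf2, the regulator of the pathway, stood at 227, 207 and 221 CPM in control, 157, 122 and 126 CPM in CM and 54.9, 145 and 112 CPM in CM plus DTM. Both treated groups lay below control, without a call (-0.70, SE 0.30, adjusted p = 0.22 and -1.07, SE 0.30, adjusted p = 0.0898).

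Of 16 tested genes of SREBP1 and fatty acid synthesis, edgeR called 1 higher and 0 lower in CM, against 4.04% and 1.57% of all genes. Limma-voom with sample weights called 2 higher and 4 lower. Elovl7, a fatty acid elongase, was the gene called by edgeR. It rose from 0.0790, 0.455 and 0.509 CPM to 2.21, 4.16 and 3.41 CPM (log2 fold change 3.22, SE 0.63, adjusted p = 0.0204). The call was lost without control 2, control 3, CM 2 or CM 3 (0.0589 to 0.0801). For the list as a whole the median log2 fold change was -0.06, -0.67 and -0.27 in the order of the comparisons. In CM plus DTM over CM 5 of 16 lay lower without overlap and 1 higher. Over control the counts were 6 lower and 2 higher. Both times the shares of all genes were 17.8% and 16.7%. Of 11 tested relatives of Lpcat3, edgeR called 0 higher and 1 lower in CM, and limma-voom with sample weights 1 and 4. Lpcat4 fell there, from 33.2, 31.4 and 33.4 CPM to 11.0, 14.3 and 15.8 CPM (log2 fold change -1.25, SE 0.22, adjusted p = 0.0132). That call was lost without any control library or CM 2 (0.0548 to 0.0609). With DTM Lpcat4 stood at 13.1, 19.8 and 19.9 CPM, also below control. Between CM plus DTM and CM edgeR called no gene of these lists, as it called none of all genes.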

How the data were processed

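The deposited table holds raw counts, with 1 row for each gene entry and 1 column for each of the 9 libraries. Per the submitters' processing notes, HISAT2 2.1.0, Trimmomatic 0.36, DESeq2 1.12.4 and FastQC 0.11.2 were used, and the builds GRCh38 and mm39 are listed with no role. The counting program, annotation and strand setting are not given in the sources used here; values of overlapping or antisense genes are therefore uncertain. The members and all lists were chosen with earlier results of these data known.

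Counts were analysed in R 4.3.3 with edgeR 4.0.16 (filterByExpr, TMM scaling, glmQLFit at its default setting, glmQLFTest), with all 9 libraries in 1 fit by group and Benjamini-Hochberg adjustment over 15429 genes, at a threshold of 0.05. The SE of a fold change is its size over the square root of F. The code of the fit was checked on simulated counts drawn with the fitted spread of each gene. These held no library that stood apart, so they do not give the error rate in these data. Depth was 43084296 to 50407973 counts per library, and no pair of libraries in a group was a copy (chi-square over its degrees of freedom 26.6 or more). Of 51826 rows, 183 share a symbol with another row and were kept apart; 0 lacked a name and 0 columns lacked a sample. Transcript lengths are those of the longest transcript of each gene in a GENCODE annotation of GRCm38. Ratios within a library were compared by exact permutation.

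Named genes are the 8 members and, per list and comparison, up to 4 called genes with the largest fold change and at least 1 CPM on average, or, where a list had none in any comparison, its 2 most abundant genes as values. For Abcg1, Abca1, Nr1h3 and Apoe the 5 genes with the highest Pearson r over the libraries were named, leaving out predicted genes and unnamed clones. Genes given as values outside this rule (Scd1, Scd2, Abca7, Abcg2, Rxra, Pparg, Fasn and the other genes with the promoter spelling) were chosen after their values were seen. Some genes that the rule names are not reported here. Further lists covered macrophage, neutrophil, mesenchymal, dendritic and lymphoid markers.

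Alternatives were DESeq2 1.42.0, limma-voom with sample weights (limma 3.58.1), glmQLFit with legacy = FALSE, RLE or total-count scaling, no count filter, fits of the compared groups only, the library number as a block, each library left out in turn, and both CM 1 and CM plus DTM 1 left out.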

Additional observations from a re-analysis of the deposited data

How the results depend on the processing

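Genes called in CM over control numbered 865 (623 higher, 242 lower), 1784 in DESeq2, 4649 in limma-voom with sample weights, 1360 with only the compared groups and 2503 without CM 1 and CM plus DTM 1, and total-count scaling gave 415 higher and 464 lower, as it moved the median of all genes by -0.198. In CM plus DTM over CM the counts were 0, 2515, 6237, 1 and 776 in the same order, 6 with legacy = FALSE and 1 with total-count scaling. In CM plus DTM over control they were 378 (232 higher, 146 lower), 1723, 5853, 118 and 1311, and 176 higher and 273 lower with total-count scaling, whose shift was -0.243. Without each library in turn the ranges were 256 to 1884, 0 to 1876 and 15 to 1766.

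Members called in CM over control numbered 3 in limma-voom, 2 with total-count scaling and 2 without both libraries, and 1 to 2 without each library in turn. In CM plus DTM over CM they numbered 2 in DESeq2, 6 in limma-voom and 3 without both libraries, and 0 to 2 without each in turn. In CM plus DTM over control they numbered 5 in limma-voom, 4 without both, and 0 with total-count scaling, with no filter, with only the compared groups or with the block, and 0 to 1 without each in turn. There Abcg1 had an adjusted p of 0.0553, 0.0517, 0.0569 and 0.0562. DESeq2 gave no p-value for Abca1.

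In limma-voom the sign of CM over control turned for Mylip (-0.011), Srebf1 (-0.25) and Lpcat3 (-0.039), that of CM plus DTM over CM for Apoe (-0.42) and Lpcat3 (0.14), and that of CM plus DTM over control for Abca1 (-1.13) and Lpcat3 (0.10). Total-count scaling turned Srebf1 (-0.071) and Lpcat3 (-0.10) in CM over control and Abca1 (-0.095) in CM plus DTM over control. Without CM 1 and CM plus DTM 1, CM over control turned for Mylip (-0.056), Srebf1 (-0.27) and Lpcat3 (-0.10), CM plus DTM over CM for Apoe (-0.44) and Lpcat3 (0.12), and CM plus DTM over control for Abca1 (-1.13) and Lpcat3 (0.022). Without each library in turn the ranges that crossed 0 were, in CM over control, Mylip -0.090 to 1.02, Srebf1 -0.30 to 0.29 and Lpcat3 -0.13 to 0.20; in CM plus DTM over CM, Apoe -0.30 to 0.34 and Lpcat3 -0.21 to 0.10; and in CM plus DTM over control, Abca1 -1.13 to 0.68 and Lpcat3 -0.12 to 0.021. The cause of these changes was not tested.

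Same-numbered libraries did not deviate together in every pair (correlations -0.044 to 0.297), so the numbers were not taken as pairs. With the library number as a replicate block, 675, 0 and 149 genes were called in the 3 comparisons, and Abca1 turned to -0.51 in CM plus DTM over control. Among the list genes named as called, the block left these without a call in CM over control: Mertk (adjusted p = 0.0914), Nr4a1 (0.0529), Abca2 (0.0745), Msr1 (0.0972), Nceh1 (0.07), Stard3 (0.0599) and Fcgr1 (0.0856). In CM plus DTM over control it left Lpl (0.0512) and Lrp1 (0.0554) without one. For the ratio differences, that pairing gives the same mean difference by arithmetic, so it could not change them and is no check. Without each library in turn, the ratio of Abcg1 to Abca1 differed by 1.97 to 2.91, -0.65 to 0.43 and 1.95 to 2.74, and that of Nr1h3 to Nr1h2 by -0.056 to 0.14, -0.0089 to 0.30 and 0.03 to 0.32. Every member held at least 182 counts in every library, and only 3 libraries a group limit these comparisons.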
